A study of Mus musculus with 28 samples.

Results

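The adaptor protein complex AP-3 is built from 7 genes in the mouse: Ap3d1 for the δ subunit, Ap3b1 and Ap3b2 for the β subunit, Ap3m1 and Ap3m2 for the μ subunit, and Ap3s1 and Ap3s2 for the σ subunit. They were chosen by name, and all 7 were found in the table of exonic counts, among 23453 genes, and in the table of intronic counts, among 20422 genes. The tables hold 28 single cells of the mouse cortex. The sample labels name 8 astrocytes and 12 neurons from C57/BL6 primary culture and 8 interneurons of C57/BL6/N mice, drawn into a patch clamp pipette from acute slices of the prefrontal cortex. The labels name no treatment, transgene or deletion, and the cultured and slice cells differ in strain label, library kit and sequencer. The methods of the study describe the cultures as made from embryos of both sexes and kept for weeks, whereas the growth protocol in the labels speaks of an adult male mouse, and which of these holds for the sequenced cells is not settled by the sources.

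The columns of both tables are named by codes that occur in no sample label, so no column could be assigned to an astrocyte, a neuron or an interneuron. Values are therefore given per column and over 3 blocks of codes: 8 columns BRP564 to BRP572, 12 columns BRP528 to BRP543 and 8 columns whose code begins with F. The blocks are as large as the 3 labelled groups, and their markers differed. The summed level of 10 astrocyte markers, in CPM (counts scaled to 1000000 exonic counts of the column), had a median of 3823 (2847 to 7318) in columns BRP564 to BRP572, of 1136 (300 to 2910) in columns BRP528 to BRP543 and of 732 (1.19 to 5637) in the F columns. For 10 neuron markers these medians were 565 (311 to 801), 8724 (5379 to 11863) and 5845 (1609 to 18758), and for 8 interneuron markers they were 17.8 (1.62 to 190), 39.1 (0.538 to 3110) and 4531 (565 to 11886). Some sums rest on few markers. A median above 10 CPM was reached by 10, 3 and 1 astrocyte markers in these blocks. The numbers were 2, 10 and 4 for neuron markers, and 0, 1 and 3 for interneuron markers. Slc1a2, an astrocyte marker, went the other way, at 192 in columns BRP564 to BRP572 and 804 in columns BRP528 to BRP543. Map2 (358) and Stmn2 (194) made up most of the neuron sum in columns BRP564 to BRP572. Markers of the oligodendrocyte lineage also stood at a median of 905 (547 to 1305) in columns BRP564 to BRP572, against 25.6 (0.517 to 1004) in columns BRP528 to BRP543 and 0.842 (0 to 3387) in the F columns. The 4 glutamatergic markers summed to medians of 0.0303 (0 to 133), 405 (0.598 to 1088) and 0.977 (0 to 5.26), the 5 microglial ones to 2.51 (0.0505 to 13.2), 0.0655 (0 to 46.6) and 2.46 (0.0674 to 2093), and the 3 endothelial ones to 0 (0 to 19.7), 0.0205 (0 to 4.74) and 0 (0 to 0.0674). No cell type is taken from these sums, and since the blocks are not labelled groups no test was made between them.

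Adaptor complexes gather membrane proteins into transport vesicles. AP-3 works at endosomes and sends its cargo to lysosomes and to related organelles such as melanosomes, platelet dense granules and synaptic vesicles. The δ and β chains form the large core, μ binds tyrosine-based sorting signals in the tails of cargo, and δ together with σ binds dileucine signals. Mice that lack Ap3d1 (mocha) or Ap3b1 (pearl) have pale coats and defects of storage granules, and loss of human AP3B1 causes a form of Hermansky-Pudlak syndrome. The products of Ap3b1 and Ap3m1 are known from all tissues, and those of Ap3b2 and Ap3m2 mainly from neurons.

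The members of each pair are easily told apart by sequence, which is what the comparison of isoforms rests on. The longest run of bases shared by the coding sequences of the β pair, read from the longest coding transcript of each gene in GENCODE M21 (build GRCm38, the same assembly as mm10), was 18 bases, and that of the μ pair was 15 bases. These runs are printed in capitals, with 20 coding bases on either side in lower case. They lie in coding exons at chr13:94408808-94408825 on the plus strand for Ap3b1, chr7:81477606-81477623 on the minus strand for Ap3b2, chr14:21045593-21045607 on the minus strand for Ap3m1 and chr8:22803865-22803879 on the minus strand for Ap3m2.
Ap3b1: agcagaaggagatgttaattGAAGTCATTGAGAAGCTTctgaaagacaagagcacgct
Ap3b2: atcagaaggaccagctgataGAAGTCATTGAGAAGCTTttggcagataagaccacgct
Ap3m1: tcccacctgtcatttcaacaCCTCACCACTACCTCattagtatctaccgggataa
Ap3m2: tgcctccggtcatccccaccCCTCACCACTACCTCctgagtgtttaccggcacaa
Aligned coding bases were identical at 68.3% of positions in the β pair, 73.2% in the μ pair and 74.4% in the σ pair, whose longest shared run was 12 bases. No pair shared a coding stretch of 50 bases (0 shared stretches in each pair). The annotation also holds pseudogenes named after Ap3s1 and Ap3m1, and how the authors' counting treated reads that match more than 1 place is not given in the sources used here.

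The genes differ in size, and levels are compared between genes only per kb of exon. Ap3b1 spans chr13:94358960-94566317 with 203 kb of introns and 4.55 kb of exons, all transcripts merged. Ap3b2 is compact, at chr7:81460399-81493925 with 27.2 kb of introns and 6.29 kb of exons. Ap3m1 (chr14:21031442-21052508) and Ap3m2 (chr8:22787354-22805622) have 14.1 and 13.7 kb of introns, and Ap3d1 lies at chr10:80706956-80742264. The merged exons of Ap3m1 overlap those of Vcl, the gene of vinculin on the opposite strand, over 2090 bases or 29.8% of their length. The kit named for the cultured cells does not mark strand and a strand setting of the counting is not given in the sources used here, so reads from this stretch cannot be told apart between Ap3m1 and Vcl.

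The 2 β genes also differ in the base composition before their start. The 250 bases upstream of the start of Ap3b1 (chr13:94358710-94358959, plus strand) and of Ap3b2 (chr7:81493926-81494175, minus strand), taken from RefSeq on GRCm38.p6, are shown because the mix of these genes is the one that differed most between the blocks of BRP columns. The dinucleotide CG is in capitals.
Ap3b1: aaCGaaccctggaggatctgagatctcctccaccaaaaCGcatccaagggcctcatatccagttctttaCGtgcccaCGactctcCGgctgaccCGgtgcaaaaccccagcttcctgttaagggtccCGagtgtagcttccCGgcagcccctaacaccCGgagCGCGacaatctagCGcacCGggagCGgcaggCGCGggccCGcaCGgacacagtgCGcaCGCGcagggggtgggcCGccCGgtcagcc
Ap3b2: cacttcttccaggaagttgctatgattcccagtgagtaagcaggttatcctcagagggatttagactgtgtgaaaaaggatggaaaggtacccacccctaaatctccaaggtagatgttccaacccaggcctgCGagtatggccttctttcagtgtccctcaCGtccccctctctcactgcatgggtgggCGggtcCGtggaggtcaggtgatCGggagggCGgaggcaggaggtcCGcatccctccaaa
The Ap3b1 window held 23 CG at 65.2% G and C, more CG than 86.7% of 32851 promoters of this length. The Ap3b2 window held 7 at 55.2%, close to the median promoter with 6 CG and 52.4%. The windows of Ap3m1, Ap3s2 and Ap3d1 held 19, 15 and 10 CG. TATAAA, searched on both strands, was in none of these 5 windows and in 12.4% of all promoters. Promoters of Ap3m2 and Ap3s1 were not matched. A link between the base composition of these windows and the levels of the genes was not tested.

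Exonic counts per column ran from 12969692 to 26770944 in the 20 BRP columns and from 838343 to 14831505 in the F columns, where 2338 to 7218 genes had a count against 9869 to 12815. A count of 0 therefore allows up to 0.112 to 0.231 CPM in a BRP column and up to 0.202 to 3.58 CPM in an F column (3 counts of the column's total). Intervals and these limits cover counting error only, since amplified reads are not independent molecules.

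**Figure D1:**
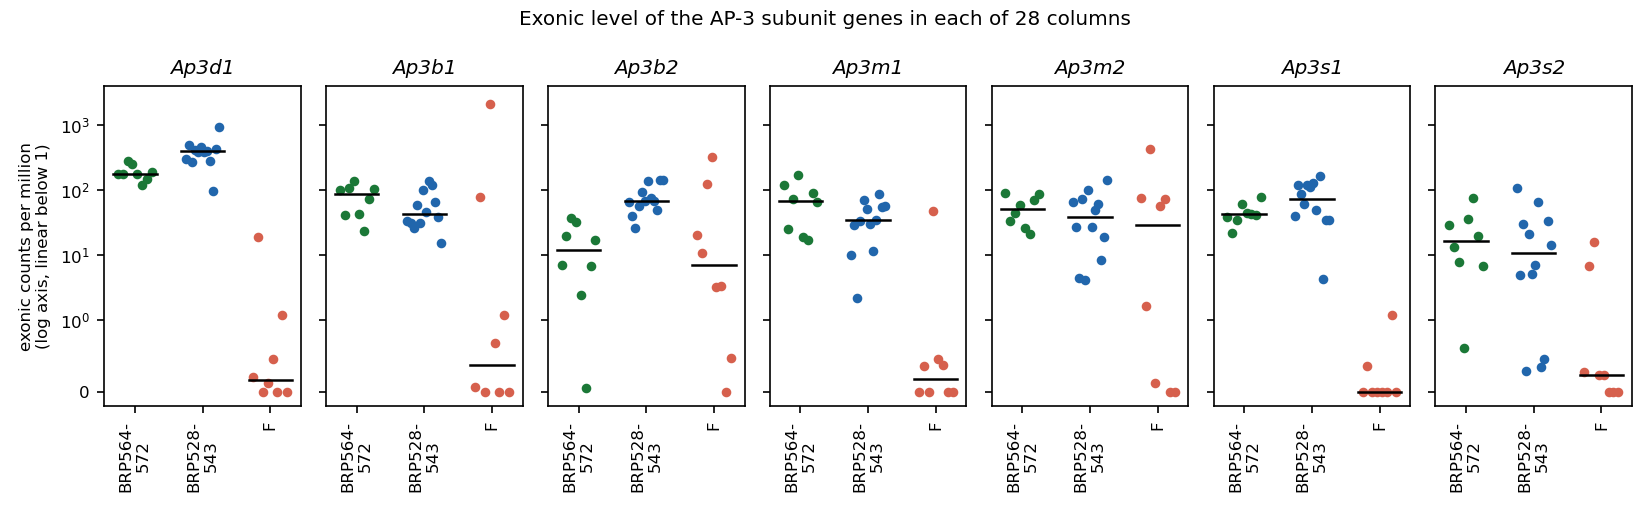
Exonic level of each AP-3 gene, in CPM on a log axis that is linear below 1, with 1 point per column and a bar at the median of the block (8 columns BRP564 to BRP572, 12 columns BRP528 to BRP543, 8 F columns). Ap3d1 lies highest in the BRP columns, Ap3b2 is the gene whose BRP medians lie farthest apart (11.9 and 67.7 CPM), and in the F columns most values lie near 0 with single high ones, such as 2147 CPM for Ap3b1.

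Ap3d1, the δ chain without which the complex is not formed, had more exonic counts than the other 6 genes in 20 of 20 BRP columns. Its level was 118 to 275 CPM with a median of 176 in columns BRP564 to BRP572, and 95.3 to 948 with a median of 392 in columns BRP528 to BRP543. The ranges overlap: BRP541 was the lowest of all BRP columns at 95.3 CPM, and BRP534 at 268 CPM also lay below BRP567 of the other block at 275. Per kb of merged exons, Ap3d1 was the highest member in 10 of 20 BRP columns, Ap3s1 in 7 and Ap3b1 in 3. Per kb of the longest coding transcript, which is 4.80 kb for Ap3d1 where the merged exons are 8.91 kb, Ap3d1 was the highest in 15 and Ap3s1 in 5.

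In the F columns Ap3d1 was nearly absent. F2 held 104 exonic counts (18.8 CPM), and the other F columns held 3, 0, 1, 2, 0, 1 and 0 counts (F1, F6, F7, F11, F12, F16 and F24). Every F column lay below every BRP column for Ap3d1 and for Ap3s1, 2 of 7 members. Over all 12668 genes with at least 10 counts in at least 4 columns, compared in this way, 8.22% did so, and 0 genes lay higher in every F column than in every BRP column. The F columns were also shallower and had fewer genes with a count, and the part of depth in the low values was not tested.

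For the β chains, the blocks of BRP columns differed in opposite ways. Ap3b1, the β chain of all tissues, stood at 23.4 to 136 CPM with a median of 86.3 in columns BRP564 to BRP572 and at 15.3 to 135 with a median of 42.1 in columns BRP528 to BRP543. Both blocks thus reached the same highest level for Ap3b1 and overlapped over most of their range. Ap3b2, the neuronal β chain, stood at 0.0505 to 36.6 CPM with a median of 11.9 in columns BRP564 to BRP572. It reached 25.5 to 144 CPM with a median of 67.7 in columns BRP528 to BRP543, and only the upper end of the first block overlapped with the lower end of the second. The lowest value, in BRP570, rested on 1 count beside 463 counts of Ap3b1.

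On the scale of the log2 ratio of block medians of CPM plus 1, BRP564 to BRP572 over BRP528 to BRP543, Ap3b2 was at -2.41 and Ap3b1 at 1.02, while the median of 12566 genes was 0.33. A lower ratio than that of Ap3b2 was found for 8.94% of these genes, and a lower one than that of Ap3b1 for 65.0%. No member lay apart between the BRP blocks in its level: 0 of 7 were lower in every column of BRP564 to BRP572 than in every column of BRP528 to BRP543, as 3.29% of the 12566 genes were, and 0 of 7 were higher, as 4.16% were. The ratios were -1.15 for Ap3d1, 0.98 for Ap3m1, 0.43 for Ap3m2, -0.77 for Ap3s1 and 0.56 for Ap3s2.

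The mix of the β chains separated the BRP blocks, by a narrow margin, where the levels did not. The share of Ap3b2 in the β pair was taken as its counts per kb over the sum for both genes, in columns with at least 10 counts on the pair. It was 0.156% to 25.3% with a median of 8.43% in columns BRP564 to BRP572 and 28.7% to 87.2% with a median of 45.1% in columns BRP528 to BRP543. The order of the shares, and so the gap, is the same with any pair of gene lengths. The nearest columns were BRP566 at 25.3% (95% exact binomial interval 22.8% to 28%) and BRP539 at 28.7% (27.6% to 29.9%), whose counting intervals touch. Ap3b2 was the larger part in 5 of 12 columns BRP528 to BRP543, namely BRP528, BRP536, BRP538, BRP542 and BRP543, and in 0 of 8 columns BRP564 to BRP572. With counts not divided by length it was the larger part in 6 of 12. In columns BRP528 to BRP543 both β genes were thus present side by side, each with at least 10 counts in all 12 columns.

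A gap of this kind was not confined to the choice of Ap3b1 as partner. The ratio of Ap3b2 to another gene was lower in every column of BRP564 to BRP572 than in every column of BRP528 to BRP543 for 12.8% of the 4095 genes with at least 10 counts in each BRP column. Of the 5 other members among them, 1 gave such a gap, Ap3b1. The ratio of Ap3m2 gave one with 4 of 4094 genes (0.0977%) and with 0 of 4 members.

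**Figure D2:**
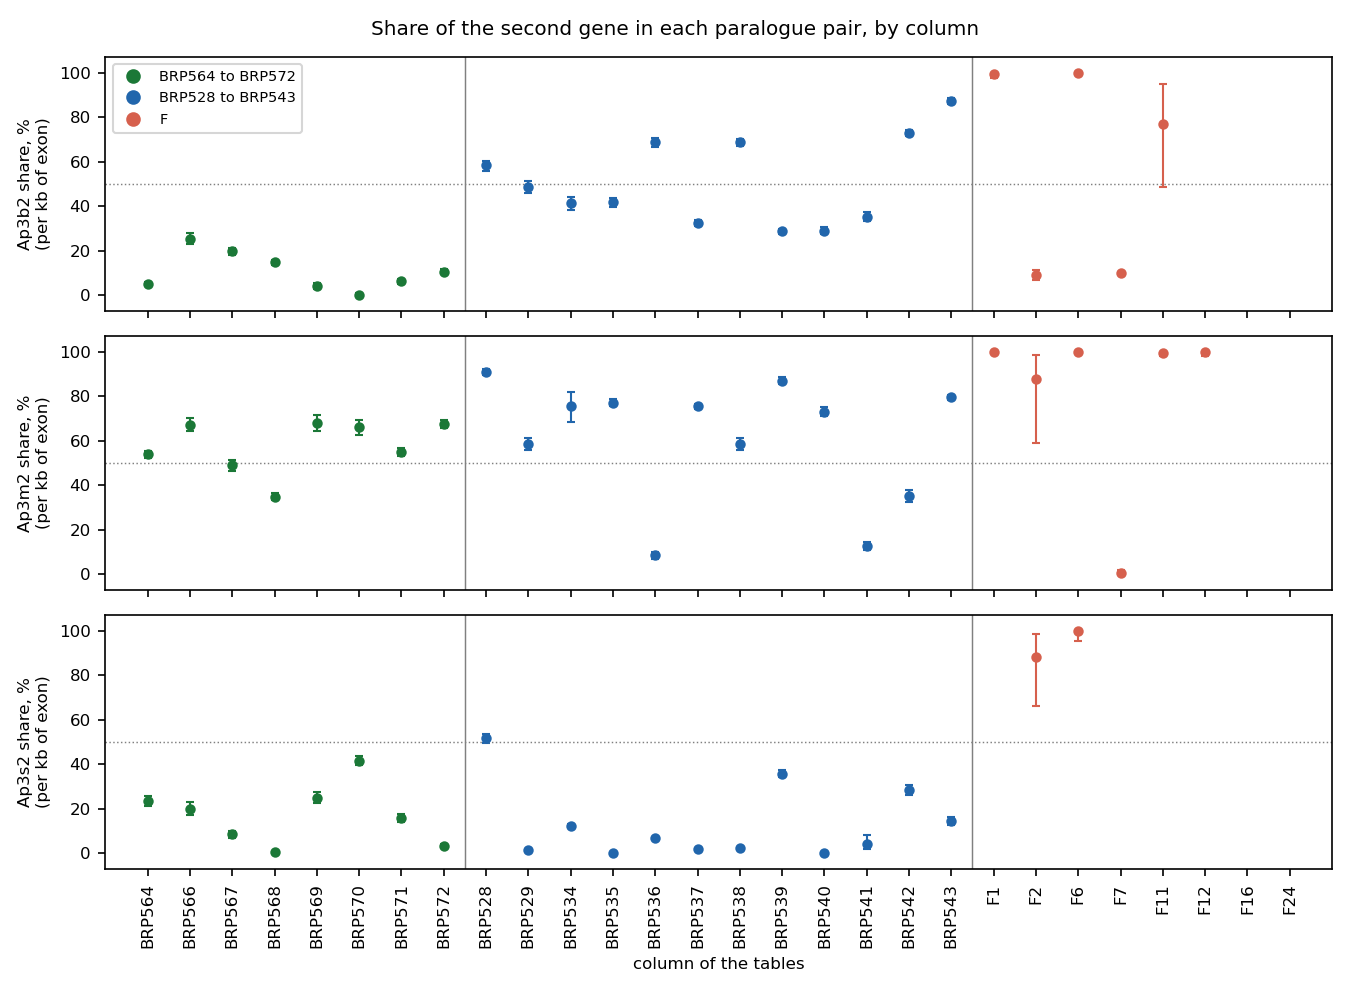
Share of the second gene of each paralogue pair, in percent of the pair per kb of exon, for each column with at least 10 counts on the pair. Bars are 95% exact binomial intervals (counting error only), vertical lines part the blocks and the dotted line marks 50%. The Ap3b2 share lies at or below 25.3% in columns BRP564 to BRP572 and at or above 28.7% in columns BRP528 to BRP543, whereas the Ap3m2 and Ap3s2 shares of these blocks overlap.

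For the μ chains, the ranges of the BRP blocks overlapped in level and in mix. Ap3m1, the μ chain of all tissues, was at 16.7 to 170 CPM with a median of 68.2 in columns BRP564 to BRP572 and at 2.19 to 87.9 with a median of 34.2 in columns BRP528 to BRP543. Ap3m2, the neuronal μ chain, was at 21.0 to 89.3 CPM with a median of 51.2 in the first block and at 4.14 to 144 with a median of 37.8 in the second. The block with the lower neuron markers thus held Ap3m2 at levels inside the range of the other block, and its 8 columns varied less, by 4.26-fold from lowest to highest against 34.9-fold. Vcl, which shares exon bases with Ap3m1, was at 188 to 1013 CPM (median 535) in columns BRP564 to BRP572, at 12.5 to 305 (median 104) in columns BRP528 to BRP543 and at 0 to 50.1 (median 0.181) in the F columns. Spearman's rho between Vcl and Ap3m1 was 0.41 over the 20 BRP columns, and its part in the Ap3m1 counts was not tested.

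The Ap3m2 share of the μ pair was 34.8% to 68.1% with a median of 60.4% in columns BRP564 to BRP572, and 8.45% to 91.0% with a median of 74.2% in columns BRP528 to BRP543. It exceeded 50% in 6 of 8 and in 9 of 12 columns, or in 4 of 8 and 7 of 12 with counts not divided by length. Columns BRP536 and BRP541 stood apart at 8.45% and 12.6%, with 92 and 144 counts of Ap3m2 beside 1546 and 1545 of Ap3m1. BRP536 was at the same time among the columns with most Ap3b2, at a share of 68.6% of the β pair.

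**Figure D3:**
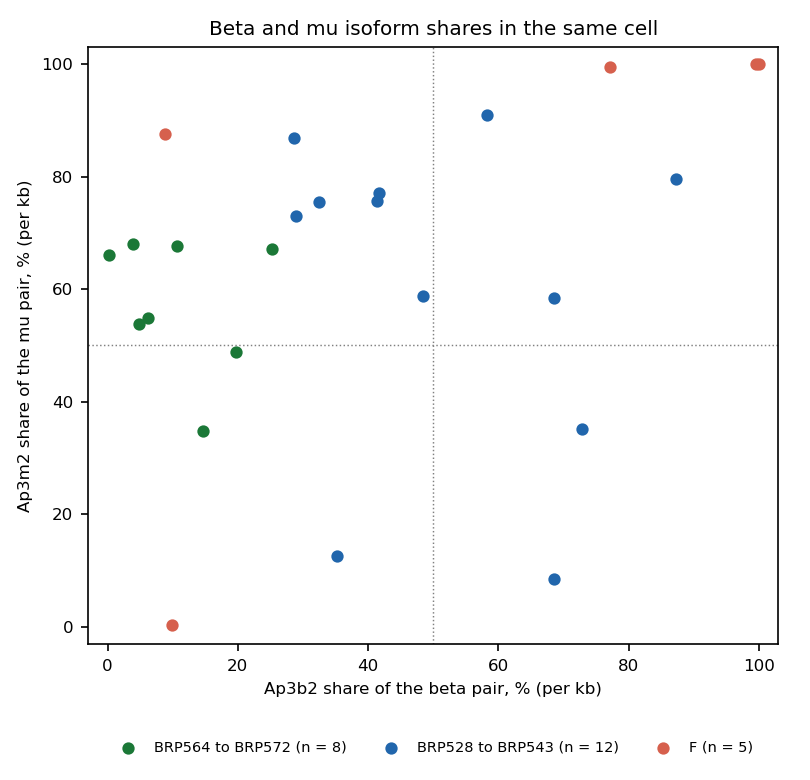
Ap3m2 share of the μ pair against the Ap3b2 share of the β pair, both in percent per kb of exon, with 1 point per column that had at least 10 counts on both pairs (8 columns BRP564 to BRP572, 12 columns BRP528 to BRP543 and 5 F columns). Dotted lines mark 50%. Both neuronal isoforms are the larger part in 3 of 20 BRP columns, Ap3m2 alone in 12, Ap3b2 alone in 2 and neither in 3.

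Among the 20 BRP columns, Ap3b2 was the larger part of its pair in 5 and Ap3m2 in 15. Both were in 3 columns (BRP528, BRP538 and BRP543), Ap3m2 alone in 12, Ap3b2 alone in 2 and neither in 3, counts that by themselves show no link between the isoforms. Spearman's rho between the shares was 0.10 over the 20 BRP columns, and -0.31 and -0.22 within the 8 and 12 columns of the blocks. Over 25 columns, with the 5 F columns that had enough counts, it was 0.38. Shares within a column come from 1 library and these values are descriptions.

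Of the σ chains, Ap3s1 was the larger part per kb in 19 of 20 BRP columns. It was at 21.5 to 78.2 CPM with a median of 42.4 in columns BRP564 to BRP572 and at 4.27 to 164 with a median of 72.8 in columns BRP528 to BRP543. Ap3s2 was at 0.606 to 75.3 CPM (median 16.3) and 0.282 to 106 (median 10.7), a range of 377-fold within the latter block. Its share of the σ pair per kb was 0.398% to 41.5% and 0.0848% to 51.8%, above 50% only in BRP528 among the 20 BRP columns. With counts not divided by length, Ap3s2 was the larger part in 3 of 20, also in BRP570 at 63.6% and BRP539 at 57.9%. In the F columns with at least 10 counts on the pair it was the larger part, at 88.3% per kb in F2 and 100% in F6. Ap3s2 had under 10 exonic counts in BRP535, BRP540 and BRP541, with 6, 6 and 8 counts beside 1269, 2872 and 75 counts of Ap3s1.

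Summed by role and per kb, the medians of the 4 chains were close in columns BRP564 to BRP572. They were 19.8 CPM per kb for δ, 20.1 for β, 24 for μ and 22.8 for σ. Single columns spread more widely, over 13.3 to 30.9 for δ, 5.15 to 35.1 for β, 7.02 to 37.1 for μ and 11.2 to 33.8 for σ. In columns BRP528 to BRP543 the medians were 43.9 for δ, 24.1 for β, 13.4 for μ and 37.8 for σ. The μ sum ran from 1.28 to 40.1 there, and it was lowest in BRP534, with 46 counts of Ap3m1 and 92 of Ap3m2. These sums depend on the exon lengths used. Each of the 4 roles had at least 10 counts in 20 of 20 BRP columns, and all 7 genes did in 16 of 20.

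The spread of the members over the 20 BRP columns was not unusual for their level. The coefficient of variation of CPM was 0.601 for Ap3d1, 0.601 for Ap3b1, 0.845 for Ap3b2, 0.792 for Ap3m1, 0.725 for Ap3m2, 0.643 for Ap3s1 and 1.2 for Ap3s2. Among the 200 genes nearest in mean level, 15.0% varied less than Ap3b1 and 63.0% less than Ap3s2, the ends of the range for the members.

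In the F columns the AP-3 genes were seen 1 or a few at a time. All 4 roles had at least 10 exonic counts in 1 of 8 F columns, F2, and at least 1 count in 4 of 8 (F1, F2, F7 and F11). The neuronal genes Ap3b2 and Ap3m2 were found there most often, with at least 10 counts in 5 and 4 columns, against 2 for Ap3b1, 1 for Ap3m1, 1 for Ap3d1, 0 for Ap3s1 and 2 for Ap3s2. The median Ap3b2 level in the F columns was 6.90 CPM and that of Ap3m2 28.9, both below the medians of columns BRP528 to BRP543. Low medians were common there. Of 21825 genes, 4.05% had a median above 1 CPM per kb in the F columns, against 32.5% in columns BRP528 to BRP543. Ap3b2 (1.10 CPM per kb) and Ap3m2 (6.40) were among the genes above 1 in the F columns.

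Ap3b2 had 299 counts in F1, 58 in F2, 1489 in F6, 2825 in F7, 14 in F11, 9 in F12, 0 in F16 and 1 in F24. In CPM these were 20.2, 10.5, 124, 325, 3.19, 3.32, 0 and 0.473. F6 and F7 thus stood within or above the range of columns BRP528 to BRP543, and the rest below it.

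Ap3m2 had 1127 counts in F1, 9 in F2, 5112 in F6, 1 in F7, 247 in F11, 197 in F12 and 0 in F16 and F24. Its level of 424 CPM in F6 was above that of every BRP column. Ap3m1 had 406 counts in F7 (46.7 CPM) and at most 2 in any other F column.

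Ap3b1 had 18663 exonic counts in F7, or 2147 CPM, and 430 in F2, and at most 3 in the other F columns. F7 alone thus held the highest Ap3b1 level of the 28 columns, beside 1 count of Ap3d1 and 1 of Ap3m2. The Ap3b2 share of the β pair was 99.5% in F1, 8.88% in F2, 100% in F6, 9.86% in F7 and 77.1% in F11, the last with an interval of 48.5% to 94.8% from 17 counts. Its median of 77.1% was 43.5% when F1 or F6 was left out. The Ap3m2 share was 87.5% or more in 5 of 6 F columns and 0.380% in F7. The 87.5% is that of F2, from 2 counts of Ap3m1 and 9 of Ap3m2, with an interval of 59.1% to 98.5%. F11 and F12 hold many of the same genes: of the genes with at least 10 exonic counts they share 1022, which are 64.1% of the 1594 in F11 and 89.7% of the 1139 in F12, the largest share of the smaller set among the 28 pairs of F columns. By Spearman's rho across genes, F11 with F12 (0.521) came after F1 with F11 (0.560) and F1 with F2 (0.546).

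**Figure D4:**
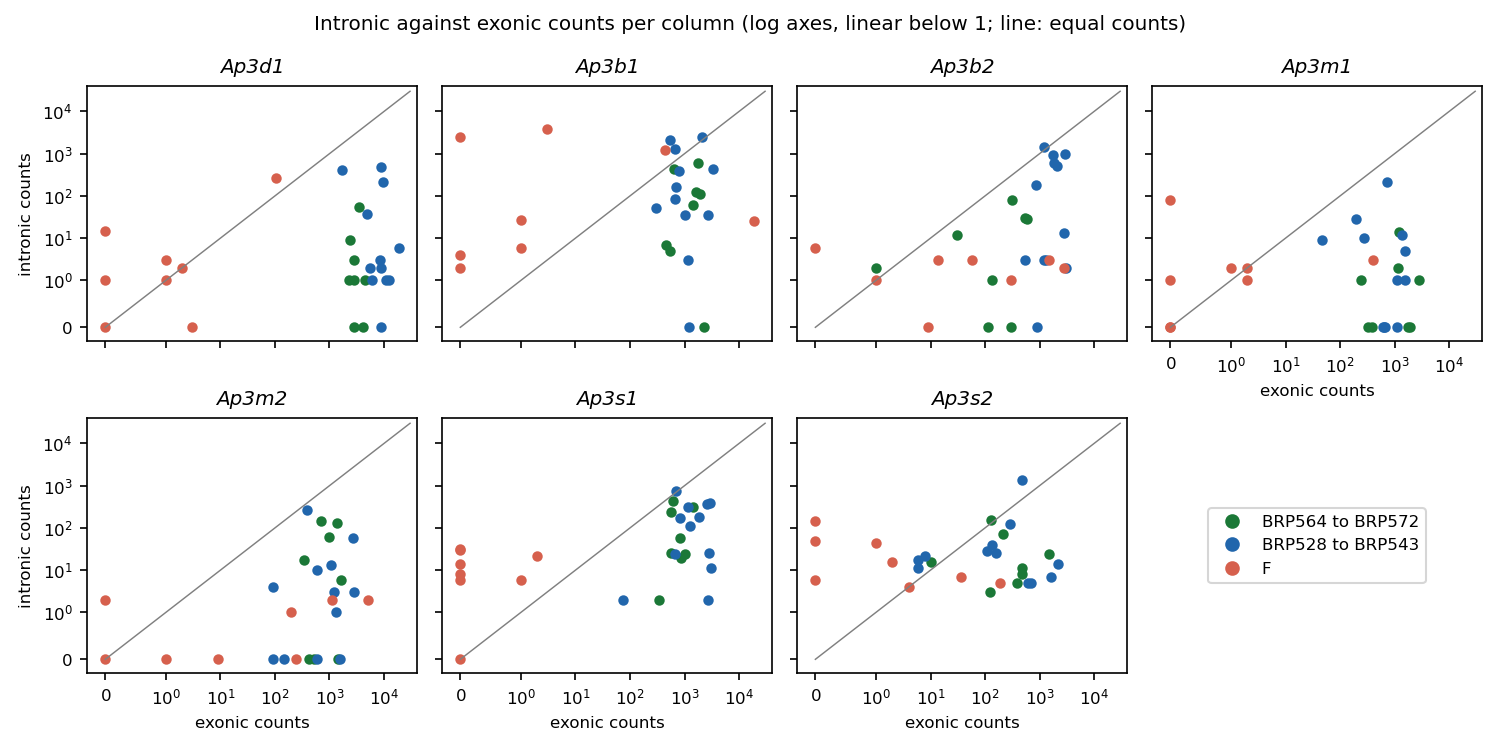
Intronic against exonic counts of each AP-3 gene, with 1 point per column, log axes that are linear below 1 and a line at equal counts. Ap3d1, Ap3m1 and Ap3m2 lie below the line in all BRP columns, Ap3b1 and Ap3s1 lie above it in 7 of 8 F columns each, and F11 and F12 hold 3844 and 2465 intronic Ap3b1 counts beside 3 and 0 exonic ones.

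Intronic counts were unevenly spread over the genes. Summed over the 28 columns, introns gave 26.4% of all counts on Ap3b1 and 15.2% on Ap3b2, 18.4% on Ap3s2 and 11.9% on Ap3s1, but 1.15% on Ap3d1, 1.86% on Ap3m1 and 2.64% on Ap3m2. A few columns carried these sums, and the median over columns with at least 10 counts on the gene was 11.4% for Ap3b1, 2.71% for Ap3b2, 21.8% for Ap3s2, 10.5% for Ap3s1, 0.0358% for Ap3d1, 0.131% for Ap3m1 and 0.214% for Ap3m2. With at least 50 counts on the gene, the median was 2.54% for Ap3s2 and 0.654% for Ap3b2, so the place of these genes depends on the measure. Ap3b1 has the longest introns of the members, and per kb of intron its sum of 79.3 counts was below the 179 of Ap3b2.

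In the BRP columns the intronic share of Ap3b1 was 0% to 79.7% with a median of 9.19%, and intronic counts outnumbered exonic ones in 3 of 20. In BRP534 these were 2158 intronic counts beside 551 exonic, and in BRP540 they were 2444 beside 2112. BRP568 held 0 intronic counts of Ap3b1 beside 2247 exonic ones (95% exact binomial interval up to 0.164%). The intronic totals of these columns were 2058421 in BRP534, 11098985 in BRP540 and 1184510 in BRP568, so their intronic depth was not matched.

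The intronic share of Ap3b2 ran from 0% to 27.9% in columns BRP564 to BRP572 (median 4.67%, 7 columns) and from 0% to 54.5% in columns BRP528 to BRP543 (median 9.21%). The highest value came from BRP540, with 1433 intronic counts beside 1196 exonic. For Ap3s2, 1336 of its 1923 intronic counts in the BRP columns came from BRP536 alone.

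In the F columns the share of intronic counts in the whole column had a median of 50.4%, against 11% in the BRP columns. Ap3b1 had more intronic than exonic counts in 7 of 8 F columns, Ap3s1 in 7, Ap3s2 in 5, Ap3d1 in 4, Ap3m1 in 3, and Ap3b2 and Ap3m2 in 1 each. These tallies had no count minimum, and some rest on few counts. In the same order, the genes had at least 10 intronic counts in 5, 4, 4, 2, 1, 0 and 0 F columns. F11 and F12 held 3844 and 2465 intronic counts of Ap3b1 beside 3 and 0 exonic counts, and F2 held 1222 beside 430. F7, with its 18663 exonic counts, had 25 intronic ones (0.134%). Ap3b2 and Ap3m2, by contrast, had at most 6 and 2 intronic counts in any F column, so the signal of the neuronal isoforms there was exonic.

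Genes whose CPM over the 28 columns ran most like a member were ranked by Spearman's rho among 8541 genes with at least 10 counts in at least 14 columns. All columns share the contrast between deep BRP and shallow F libraries, so the same ranking within the 20 BRP columns is given beside it. For Ap3b2 they were Celf3 (0.89), Aak1 (0.89), Pi4ka (0.87), Tubb3 (0.86), a neuronal β-tubulin, and Abi2 (0.86), and within the BRP columns the first 5 included Ank3 (0.90), Mtch1 (0.89), Bmyc (0.89) and Hivep2 (0.89). For Ap3b1 they were Kdm5d (0.85), Atxn1 (0.80), Irf2bp2 (0.78), Smek1 (0.78) and Rpp38 (0.77), and Kdm5d and Rpp38 were again among the first 5 within the BRP columns, at 0.75 and 0.80.

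For Ap3m1 the 5 were Rqcd1 (0.87), Mzt2 (0.84), Oma1 (0.83), Lpcat3 (0.82) and Mfsd11 (0.82), of which Rqcd1, Oma1 and Lpcat3 returned within the BRP columns at 0.78, 0.75 and 0.75. The pattern of Ap3m2 was matched less closely, by Clu (0.68), Irf3 (0.66), Lsm4 (0.65), Spcs1 (0.64) and Hspa5 (0.64), and 0 of these 5 were among the first 5 within the BRP columns, which Ercc4 led at 0.84.

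Among the members themselves, Ap3b2 and Ap3d1 ran most alike in the 20 BRP columns, at a rho of 0.78. That was above the rho of 99.8% of genes with Ap3d1 and of 98.5% with Ap3b2. Both genes also had the lower median in columns BRP564 to BRP572, at log2 ratios of -1.15 for Ap3d1 and -2.41 for Ap3b2. Ap3b1 with Ap3m1 was at 0.44, Ap3m1 with Ap3m2 at 0.27, Ap3b2 with Ap3m2 at 0.03 and Ap3b1 with Ap3b2 at -0.07. Ap3b1 with Ap3m2, an isoform of the other kind, was at 0.38, not far from Ap3b1 with Ap3m1. Between the blocks pooled here, the median ratios of Ap3b1 and Ap3m1 were alike (1.02 and 0.98). Those of Ap3b2 and Ap3m2 were not (-2.41 and 0.43). How much of these rho values comes from the blocks, or from the exon bases that Ap3m1 shares with Vcl, was not tested, and no error is given for them.

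The partners and cargo of AP-3 were read as lists, per kb of exon and by block. Of 21 genes of the other adaptor complexes, 11 had a median above 1 CPM per kb in columns BRP564 to BRP572, 11 in columns BRP528 to BRP543 and 1 in the F columns, where 37.9%, 32.5% and 4.05% of 21825 genes did. The highest over all columns were Ap4s1, of AP-4, with block medians of 93.9, 105 and 0 CPM per kb, and Ap2m1, the μ chain of the clathrin adaptor AP-2, with 27.0, 36.5 and 1.12, while Ap5b1 was lowest, at 0.0173, 0 and 0.

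BLOC-1 and BLOC-2, complexes that act with AP-3 in making lysosome-related organelles, had 7, 6 and 0 of 10 measured genes above 1 CPM per kb (Bloc1s2 was not matched). Bloc1s1 stood at 178, 73.3 and 0.143 CPM per kb, Snapin at 52.8, 17.9 and 0.860 and Hps6 at 0.285, 0 and 0. HOPS, which tethers late endosomes to lysosomes, had 6, 5 and 1 of 6 genes above 1. Its subunit Vps41 was at 3.35 to 13.4 CPM per kb in columns BRP564 to BRP572, at 4.02 to 21.1 (median 6.72) in columns BRP528 to BRP543 and at 0 to 225 (median 29.2) in the F columns. The medians of the 3 blocks were 8.10, 14.4 and 0.0189 for Vps18 and 2.62, 0.221 and 0 for Vps39. Vps41 had at least 10 counts in 7 of 8 F columns.

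Of 11 genes for cargo and regulators, 8, 10 and 4 were above 1 CPM per kb. Arf1, the GTPase that brings AP-3 to membranes, had medians of 487, 519 and 1.28 CPM per kb and Lamp1, a lysosomal membrane cargo, of 277, 136 and 36.5. Slc32a1, the vesicular GABA transporter, was lowest over all columns with medians of 0, 0 and 190 CPM per kb, and it is also 1 of the interneuron markers summed above.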

How the data were processed

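The authors deposited whole-number counts of exonic and of intronic reads per gene for 28 single mouse cells, not normalized. The submitters' notes name bcl2fastq 2.17, STAR 2.4.0 and mm10. The counting tool, annotation, strand setting and filters are not given in the sources used here. By the labels, cultured and slice cells had different library kits and sequencers. The 28 columns match no sample label and were used as cells of unknown identity, so no test was made, and values are given per column or as lowest, median and highest over blocks of codes.

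Levels are CPM of the column's exonic total, and per kb of merged exons of GENCODE M21 (GRCm38) between genes, with 93.1% of symbols matched. Shares needed at least 10 counts and have 95% exact binomial intervals. Code for the comparison of levels between BRP blocks was tested on simulated counts that had counting error only. Python 3.11.15, pandas 2.3.3, scipy 1.17.1 and Biopython 1.88 were used, and edgeR 4.0.16 and DESeq2 1.42.0 only for alternative scalings. Members and lists were chosen with earlier results of these data known. The named genes are the members, of each list the 2 highest and the lowest by median over the 28 columns, and the 5 most like each of Ap3b1, Ap3b2, Ap3m1 and Ap3m2, of which 1 is not reported here. Alternatives were other scalings, lengths, count minimums, thinning and leaving out columns.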

Additional observations from a re-analysis of the deposited data

Results flagged for a closer look

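The 7 levels and the pair shares were examined in the 8 columns BRP564 to BRP572 and the 8 F columns, and the 12 columns BRP528 to BRP543 were left out because the criterion was applied to sets of 4 to 10 values. Of the 19 sets examined, 9 held a column that stood apart from its block by Dixon's criterion. The chance rate of this criterion, about 1 of 20, holds for normally distributed values. Many F levels rest on few counts or none beside single high ones, and some sets share counts. The Ap3m1 level and the Ap3m2 share in F7, for example, rest on the same Ap3m1 counts. The 9 of 19 can therefore not be compared with that rate, and the columns are listed as a description. In columns BRP564 to BRP572, Ap3s2 was at 75.3 CPM in BRP570, where the next column was at 36.0.

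The other 8 lie in the F columns. F7 stood apart for Ap3b1 at 2147 CPM (next 77.7), for Ap3b2 at 325 (next 124), for Ap3m1 at 46.7 (next 0.456) and for the Ap3m2 share of the μ pair at 0.380% (next 87.5%, 6 columns). F6 stood apart for Ap3m2 at 424 CPM (next 76.0) and for Ap3s2 at 15.9 (next 6.68), and F2 for Ap3d1 at 18.8 (next 1.19). Ap3s1 in F16, at 1.19 CPM (next 0.361), rests on 1 count.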

How the results depend on the processing

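No value of the levels, pair shares or numbers of columns with counts moved beyond its interval over columns (for a number of columns, beyond 1.5 times) under other scalings, exon lengths, count minimums or thinning. These intervals are wide: thinned to 500000 exonic counts, the Ap3b2 share in columns BRP564 to BRP572 had a median of 15.7% in place of 8.43%, and in the 20 BRP columns alone, added after the data were seen, the Ap3d1 level was 278 CPM in place of 183 and that of Ap3s2 13.8 in place of 6.91. With counts summed over columns in place of the median column, the intronic share was 1.86% in place of 0.131% for Ap3m1 and 2.64% in place of 0.214% for Ap3m2. It was 1.15% in place of 0.0358% for Ap3d1, 15.2% in place of 2.71% for Ap3b2 and 26.4% in place of 11.4% for Ap3b1. With at least 50 counts on the gene it was 2.54% in place of 21.8% for Ap3s2 and 0.654% in place of 2.71% for Ap3b2. The cause was not tested. Leaving out 1 column moved the Ap3b2 share in the F columns from 77.1% to between 43.5% (without F1 or F6) and 88.3%, and the median intronic share of Ap3b2 over 24 columns from 2.71% to 0.752% or 4.67%, depending on the column. Without BRP528 and BRP529, 2 of the 7 columns of their block with at least 10 counts of the astrocyte marker Aqp4, the Ap3b2 share in the block was 41.5% in place of 45.1%. No paired analysis was possible because the columns carry no replicate numbers and no test was made.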
